A study of Mus musculus with 8 samples.

Results

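Melanocytes keep their identity through a small circuit of transcription factors and of surface receptors that feed it, and 10 genes of this circuit were described here: Mitf, Sox10, Pax3, Tfap2a, Lef1 and Irf4, and the receptor genes Kit, Mc1r, Ednrb and Met. They were taken by symbol from the array's probe set annotation, each was measured by 1 single-symbol probe set, and they are 10 of the 22180 genes tested. Cultured mouse melanocytes that had lost autophagy (KO; Atg7 f/f Tyr::Cre) were compared with autophagy competent ones (WT; Atg7 f/f), each after 20 J/cm² of the long-wave ultraviolet UVA-1 or after a sham treatment. The 4 groups, KO UVA, KO sham, WT UVA and WT sham, had 2 Affymetrix arrays each, described by the submitters as biological duplicates and numbered 1 and 2. All cells came from pups 1 to 5 days old labelled female, carried floxed Atg7 alleles, had been in culture for 22 days and were lysed 6 h after treatment.

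Atg7 encodes an enzyme that autophagy needs. The Cre recombinase is driven by the tyrosinase promoter, which is active in pigment cells, so other cells of a KO culture would keep their Atg7. The labels name Cre in the KO cells only, so loss of Atg7 and presence of Cre cannot be told apart. How many animals stand behind a culture, and what a replicate number marks, is not stated in the labels.

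MITF is the basic helix-loop-helix transcription factor that switches on pigment enzymes and melanosome genes and is needed for melanocytes to survive. SOX10, PAX3 and LEF1 act on the melanocyte promoter of Mitf, TFAP2A binds many of the same target genes, and IRF4 works with MITF on the tyrosinase gene. MC1R, the receptor for melanocyte stimulating hormone, raises cyclic AMP and through it Mitf transcription. KIT, EDNRB and MET, the receptors for stem cell factor, endothelins and hepatocyte growth factor, support melanocyte growth, migration and survival.

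RefSeq promoter windows of build GRCm38.p6 were found for 8 of the 10 genes (all but Sox10 and Pax3), with 15 starts in all. The 250 bases before the start are shown for Mc1r and Ednrb, the members that passed the UVA-1 test in 1 of 3 fits, and for the most downstream of 3 Mitf starts, that of the melanocyte isoform. Capitals mark matches, on either strand, to CACGTG and CATGTG (E-boxes bound by MITF and its relatives), ACAAAG (the core bound by SOX and LEF factors) and TGACG (the core of the cyclic AMP response element). The Mc1r window is chr8:123406832-123407081 (plus strand), the Ednrb window chr14:103843702-103843951 (minus strand) and the Mitf window chr6:97991533-97991782 (plus strand).
Mc1r: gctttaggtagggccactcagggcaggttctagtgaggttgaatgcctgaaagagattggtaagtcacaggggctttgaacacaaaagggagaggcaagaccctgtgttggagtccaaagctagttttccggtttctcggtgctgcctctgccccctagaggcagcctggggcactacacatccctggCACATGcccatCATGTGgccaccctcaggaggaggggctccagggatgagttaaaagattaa
Ednrb: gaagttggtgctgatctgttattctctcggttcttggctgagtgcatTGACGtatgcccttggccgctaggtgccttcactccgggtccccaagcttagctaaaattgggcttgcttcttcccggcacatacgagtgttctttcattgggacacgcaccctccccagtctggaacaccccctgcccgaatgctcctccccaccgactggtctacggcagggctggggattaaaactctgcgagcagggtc
Mitf: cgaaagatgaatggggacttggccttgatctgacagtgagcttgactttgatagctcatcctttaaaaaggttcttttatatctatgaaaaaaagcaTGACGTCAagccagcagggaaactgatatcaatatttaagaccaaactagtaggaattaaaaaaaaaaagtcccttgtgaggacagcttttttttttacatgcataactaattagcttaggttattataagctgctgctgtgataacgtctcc

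The Mc1r window holds 2 matches to CATGTG, whose first bases lie 62 and 51 bases before the start. Of all 32851 RefSeq windows of this length, 12.3% hold a match. The Mitf window holds 2 overlapping matches to TGACG on opposite strands, 153 and 150 bases before the start, which together form the full palindromic cyclic AMP response element. The Ednrb window holds 1 such match, 203 bases before the start, and 17.8% of all windows hold one. CACGTG (6.02% of windows) was matched at Met and Lef1, and ACAAAG (16.5%) at Lef1. These matches describe letters in the windows; factor binding was not measured.

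Sham and UVA arrays of the same genotype and replicate number resembled each other more than duplicates of a group did. They correlated at r = 0.996 to 0.997 across genes, which are not independent replicates, and duplicates at 0.962 to 0.978. The melanocyte label was borne out by pigment cell transcripts. The summed intensity of 9 melanocyte markers was 56589 and 53627 (UVA and sham) in KO of number 1, against 52877 and 55200 in WT of number 1. For number 2 this sum was 82901 and 81009 in KO, against 91246 and 92930 in WT. Fibroblast markers were high as well. The sum of 12 of them was 50512 and 53129 (UVA and sham) in KO of number 1, against 50446 and 51683 in WT of number 1. In number 2 it was 21064 and 22491 in KO, against 9185 and 10278 in WT. The probe set of the targeted gene Atg7 read 804 and 602 in KO UVA and 831 and 598 in KO sham (numbers 1 and 2), against 1004 and 832 in WT UVA and 989 and 859 in WT sham. Which exons its probes cover is unknown here, so these values may not check the deletion.

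Among the transcription factors, Mitf, Sox10, Pax3, Tfap2a and Irf4 were higher in number 2 than in number 1 in each of the 4 groups, and Lef1 in WT alone. Below, the values of a group are RMA intensities (quantile-normalized, linear scale) of number 1 and then number 2. They compare arrays for 1 gene, not genes with each other. Unless another fit is named, adjusted p-values come from limma on the 4 group means with no block, and those of the number-blocked fit from limma with replicate number as a term. Mitf read 1242 and 2963 in KO UVA and 1536 and 3132 in KO sham, against 1293 and 3892 in WT UVA and 1934 and 3806 in WT sham. Number 2 exceeded number 1 in every group, and within each number both KO arrays lay below their WT partners. Averaged over treatments the difference was -0.27 (KO minus WT, log2 intensity, SE 0.51), or 0.832-fold, with a limma adjusted p of 1, and 0.548 in the number-blocked fit (SE 0.10).

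Sox10, which encodes a neural crest factor upstream of Mitf, read 1835 and 3078 in KO UVA and 1764 and 3063 in KO sham, against 1575 and 3982 in WT UVA and 1598 and 3748 in WT sham. KO arrays were above WT arrays in number 1 and below them in number 2. Pax3, a paired box factor of melanoblasts, read 2102 and 3436 in KO UVA and 1983 and 3295 in KO sham, against 2101 and 4467 in WT UVA and 1970 and 4380 in WT sham. In number 1 the genotypes were within 0.01 log2 units of each other, and in number 2 KO was 0.761-fold of WT. Tfap2a read 1567 and 2726 in KO UVA and 1414 and 2829 in KO sham, against 1243 and 2906 in WT UVA and 1334 and 3227 in WT sham. Its averaged KO minus WT difference was 0.03 log2 units (0.21 in number 1 and -0.14 in number 2).

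Irf4, an interferon regulatory factor that pigment cells also use, read 157 and 345 in KO UVA and 149 and 323 in KO sham, against 226 and 523 in WT UVA and 178 and 537 in WT sham. Within each number every KO array was below every WT array, and the KO to WT ratio was 0.763 in number 1 and 0.630 in number 2. The KO values of number 1 lay just below the median intensity of all genes, 158.6, so that ratio rests on dim signal. The averaged log2 difference of -0.53 had an SE of 0.53 (limma adjusted p = 1). In the number-blocked fit the SE was 0.10 and the adjusted p 0.308, with 0.329% of all genes at or below its unadjusted p of 0.00104. Lef1, the nuclear partner of beta-catenin in Wnt signalling, read 249 and 196 in KO UVA and 246 and 219 in KO sham, against 172 and 257 in WT UVA and 190 and 259 in WT sham. KO exceeded WT in number 1 (1.37-fold) and lay below it in number 2 (0.803-fold), with an average of 0.07 log2 units (adjusted p = 0.925 in the number-blocked limma fit).

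Kit and Met, both receptor tyrosine kinase genes, were higher in number 2 than in number 1 in every group. Kit read 1626 and 2449 in KO UVA and 1568 and 2536 in KO sham, against 1521 and 3598 in WT UVA and 1666 and 3814 in WT sham. The KO to WT ratio was 1.00 in number 1 and 0.673 in number 2. Met read 2475 and 3875 in KO UVA and 2181 and 3574 in KO sham, against 2498 and 5615 in WT UVA and 2504 and 5318 in WT sham. Its ratio was 0.929 in number 1 and 0.681 in number 2, with a limma adjusted p of 0.490 for the averaged difference in the number-blocked fit.

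Mc1r had the widest range of the 10 genes, 2.41 log2 units. It read 914 and 2118 in KO UVA and 1090 and 2570 in KO sham, against 994 and 3946 in WT UVA and 1284 and 4866 in WT sham. All number 2 arrays lay above all number 1 arrays, and the KO to WT ratio was 0.883 in number 1 and 0.532 in number 2. The averaged difference of -0.54 (log2) had a 95% interval of -2.18 to 1.09 with no block and of -0.89 to -0.20 in the number-blocked limma fit (adjusted p = 0.477).

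Ednrb did not share the number 2 excess of the other receptors. It read 820 and 477 in KO UVA and 517 and 368 in KO sham, against 739 and 1213 in WT UVA and 483 and 944 in WT sham. In number 1 KO was 1.09-fold of WT. In number 2 it was 0.391-fold, a log2 difference of -1.35 that was the largest of any member in either number. In KO, number 2 lay below number 1, and in WT above it. The averaged difference of -0.61 (SE 0.32) gave a limma adjusted p of 1, and 0.587 in the number-blocked fit.

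**Figure D1:**
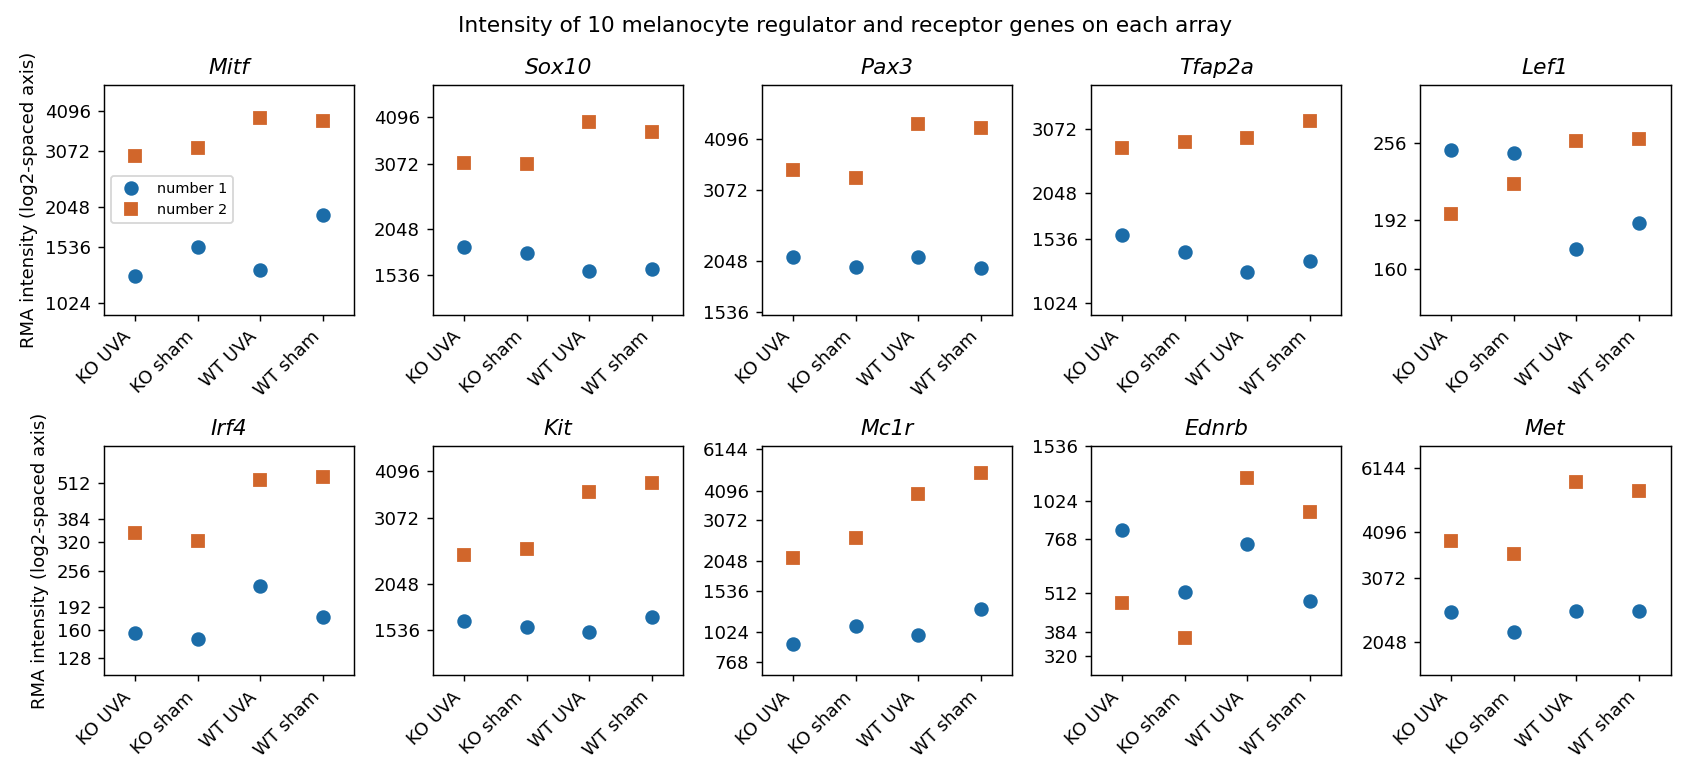
RMA intensity of each of the 10 genes on the 8 arrays, on a log2-spaced axis whose range differs between panels; circles are replicate number 1, squares number 2, and each symbol is 1 array. The squares lie above the circles in every group for 8 genes, and for Lef1 and Ednrb the squares lie below the circles in KO and above them in WT.

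For 8 of the 10 members all 4 arrays of number 2 lay above all 4 arrays of number 1, which held for 16.6% of all genes. The exceptions were Lef1 and Ednrb. The excess of number 2 was at least 1 log2 unit after both treatments for 3 members in KO (1.2% of all genes), Mitf, Irf4 and Mc1r, and for 7 in WT (2.63%). The median difference, number 2 minus number 1, was 0.75 log2 units over the members in KO and 1.23 in WT, against medians of 0.00 and 0.01 over all genes. It was larger in WT than in KO in both treatments for 9 of 10 members (34.2% of all genes), Mitf being the exception. The 9 melanocyte markers had medians of 1.18 in KO and 1.24 in WT, and the 12 fibroblast markers -1.08 and -2.35. The part of the fibroblast transcripts in these differences was not tested, and in bulk RNA fewer melanocytes and less RNA per melanocyte cannot be told apart.

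**Figure D2:**
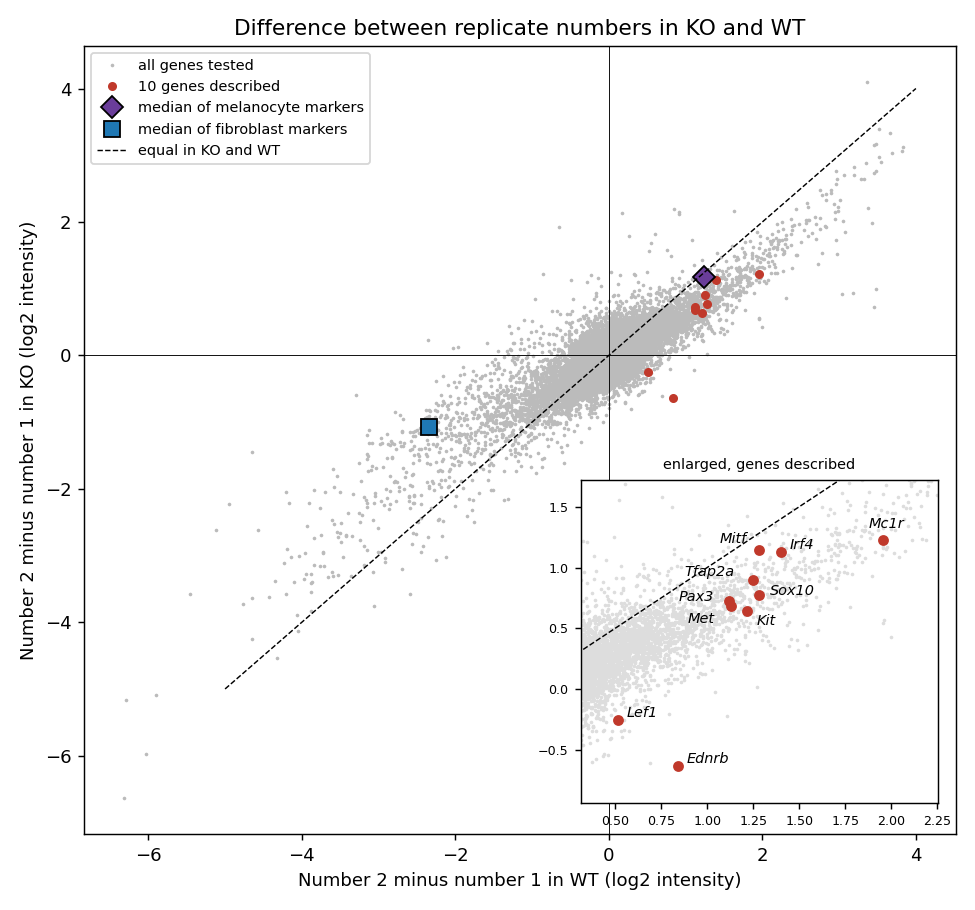
Difference between replicate numbers (number 2 minus number 1, log2 intensity, mean of sham and UVA) in KO on the vertical and in WT on the horizontal axis; grey points are all genes tested, red points the 10 genes, the diamond and square the medians of melanocyte and fibroblast markers, and the inset enlarges the region of the red points. All 10 lie below the line of equality, with Lef1 and Ednrb below 0 in KO.

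The comparison of KO with WT asks whether cells without autophagy keep the expression of their lineage regulators. Limma called 0 of the 10 members averaged over treatments, after sham or after UVA, where it also called 0% of all genes. The number-blocked fit called 0 members and 0.0316% of all genes in the averaged comparison, with adjusted p-values from 0.308 (Irf4) to 0.931 (Tfap2a). At an unadjusted p under 0.05, 0 members passed with no block (2.33% of all genes), and 4 passed in the number-blocked fit (8.88%): Mitf, Irf4, Mc1r and Met. After UVA alone 0 members passed with no block (1.59%) and 2 number-blocked (4.18%), Irf4 and Mc1r. After sham alone 0 passed with no block (2.01%) and 3 number-blocked (5.55%), Irf4, Mc1r and Met. The number-blocked p-values are too small where a sham and a UVA array come from 1 culture, since that fit counts them as independent. In the averaged comparison the fit with no block also counts such arrays as independent, although its SE includes the shift between replicate numbers.

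The members leaned toward lower values in KO. The KO and WT arrays overlapped for every member: the KO arrays were entirely below for 0 of 10 (0.942% of all genes) and entirely above for 0 of 10 (0.866%). The averaged difference was negative for 8 of 10, with a median of -0.28 log2 units, against 54.2% of all genes and a median of -0.01. KO lay below WT in all 4 pairs of treatment and number for 4 of 10 (Mitf, Irf4, Mc1r and Met), as it did for 7.78% of all genes, and above WT in all 4 for 0 of 10 (7.65%). In number 2 KO was below WT after both treatments for all 10 members (34.7% of all genes). It was below by at least 0.2 log2 units after both treatments for 9 (9.48%), Tfap2a being the exception. In number 1 KO was below WT for 4 (24.2%) and above for 5 (25.7%). These 5, Sox10, Pax3, Tfap2a, Lef1 and Ednrb, were above WT in number 1 and below it in number 2, as were 9.65% of all genes. For Pax3 the excess in number 1 was at most 0.01 log2 units, too small to give a direction. The members' median was 0.00 for number 1 and -0.47 for number 2. With a single culture per genotype behind each of these medians, they carry no test.

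Fibroblast markers differed between the genotypes in number 2. There the median KO minus WT difference was 1.19 log2 units for the 12 fibroblast markers and -0.12 for the 9 melanocyte markers. In number 1 it was 0.08 and 0.02. The number 2 differences of the members ran from -0.14 (Tfap2a) to -1.35 (Ednrb). Those of the 9 melanocyte markers ran from 0.02 (Trpm1) to -0.545 (Slc45a2), so the 2 ranges overlap. The brightest markers, Tyrp1, Dct, Pmel and Mlana, read 9074 to 18652, where the highest value in the data was 22585. They differed by -0.02 to -0.12, and Tyr, Oca2, Gpr143 and Slc45a2 by -0.33 to -0.545. Whether differences are compressed at such high intensities was not tested, so the marker median may not measure melanocyte content. The contribution of fibroblast RNA was not tested. Mast cells, which use KIT and MITF, left little signal: Cpa3 read at most 27 and Mcpt4 at most 13 on any array, where the lowest value in the data was 7. Gata2, which other cells also express, was the brightest of the list at 167 to 559. The sum of 9 mast cell markers was 424 to 792 over KO arrays and 419 to 803 over WT arrays. Endothelial cells express EDNRB and KIT, and 8 of their markers summed to 1207 to 1845 over KO and 1136 to 1737 over WT arrays. Sums for Schwann cell markers, of which 7 were measured, were 6325 to 7262 over KO and 6379 to 7492 over WT arrays. Most of these sums was Pmp22, at 4300 to 5189, while Mag read 44 to 56 and Mbp 118 to 150. The sum of 8 myeloid markers in number 2 was 2454 and 2695 in KO (UVA and sham), against 1345 and 1403 in WT, with the lysozyme gene Lyz2 differing by 1.70 log2 units and the list's median by 0.03. In number 1 it was 1256 and 1241 in KO, against 1213 and 1074 in WT. The sum of 9 keratinocyte markers in number 2 was 1214 and 1392 in KO, against 939 and 1023 in WT, and in number 1 it was 1746 and 1651 in KO, against 1660 and 1575 in WT. Of these markers Ivl differed most in number 2, by 1.28 log2 units. The number 2 medians were -0.06 for Schwann cell, 0.00 for mast cell, 0.10 for endothelial and 0.11 for keratinocyte markers. The part of these cells in the members' differences was not tested either.

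**Figure D3:**
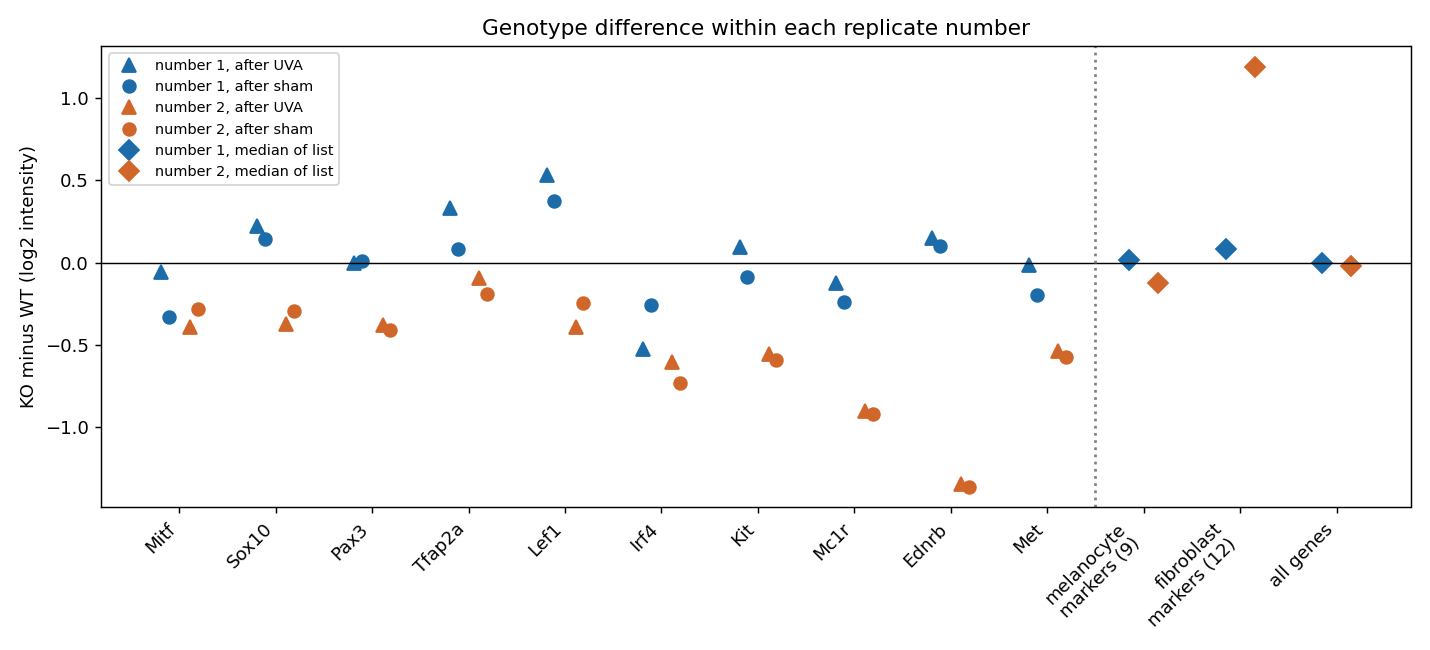
KO minus WT in log2 intensity for each gene, after UVA (triangles) and after sham (circles), in replicate number 1 (blue) and number 2 (orange), with diamonds for the medians of melanocyte markers, fibroblast markers and all genes. All orange symbols of the 10 genes lie below 0, while the orange diamond of the fibroblast markers is at 1.19.

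The UVA comparison asks how the circuit responds 6 h after irradiation. Mc1r was lower and Ednrb higher after UVA in every pair of genotype and number. For Mc1r the UVA to sham ratio was 0.838 and 0.824 in KO (numbers 1 and 2), and 0.774 and 0.811 in WT. For Ednrb it was 1.59 and 1.30 in KO, and 1.53 and 1.28 in WT. All 4 UVA arrays lay below all 4 sham arrays for 0 of 10 (0.6% of all genes) and above them for 0 of 10 (1.23%). Members below sham in all 4 pairs numbered 1 of 10 (9.08% of all genes), and members above it 2 of 10 (10.6%), Ednrb and Pax3.

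Whether these differences passed depended on how the arrays were paired. With no block limma called 0 of 10 members and 0% of all genes, both averaged over genotypes and within each genotype. At an unadjusted p under 0.05 it also passed 0 members (1.81% of all genes in the averaged comparison, 1.57% in KO and 1.54% in WT). The number-blocked fit called 0 members and 0.0135% of all genes in the averaged comparison, 0.00902% in KO and 0.00451% in WT. Unadjusted it passed 0 members as well, with 6.54% of all genes in the averaged comparison, 4.02% in KO and 3.94% in WT. A further fit blocked on each genotype-by-number combination. Such a combination is called a culture here, a name the labels do not give to its sham and UVA arrays. This culture-blocked fit called 2 of 10 members and 0.437% of all genes in the averaged comparison, 1 higher (0.239%) and 1 lower (0.198%). Unadjusted, 4 members passed in the averaged comparison, Mitf, Mc1r, Ednrb and Met (12.6% of all genes), 3 in KO (8.49%) and 2 in WT (8.41%). Within a genotype the adjusted p called 0 members, with 0.00902% of all genes in KO and 0.0541% in WT. Averaged over genotypes Mc1r then fell by 0.30 log2 units after UVA (0.812-fold, SE 0.04, 95% interval -0.40 to -0.20, adjusted p = 0.0347). Ednrb rose by 0.50 log2 units (1.42-fold, SE 0.07, interval 0.34 to 0.67, adjusted p = 0.0347). That fit has 2 residual degrees of freedom. With the arrays of any 1 of the 4 cultures left out, the differences were -0.32 to -0.28 for Mc1r and 0.43 to 0.58 for Ednrb. Neither call held there, but such a fit has fewer residual degrees of freedom and 1 array in each group of that genotype. It therefore cannot show whether the calls rest on any 1 culture.

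Mitf was lower after UVA in 3 of 4 pairs. Its UVA minus sham difference was -0.31 in KO and -0.58 in WT of number 1, and -0.08 in KO and 0.03 in WT of number 2. The average of -0.23 had an SE of 0.09 in the culture-blocked limma fit (adjusted p = 0.324). Met was 0.09 log2 units higher after UVA on average (adjusted p = 0.355 in that fit), and Irf4 0.12 higher (adjusted p = 0.623), with 0.34 in WT of number 1 and -0.04 in WT of number 2. For Sox10, Pax3, Tfap2a, Lef1 and Kit the averaged differences were between -0.07 and 0.07. Their culture-blocked 95% intervals ran at the widest from -0.24 to 0.09 (Lef1).

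**Figure D4:**
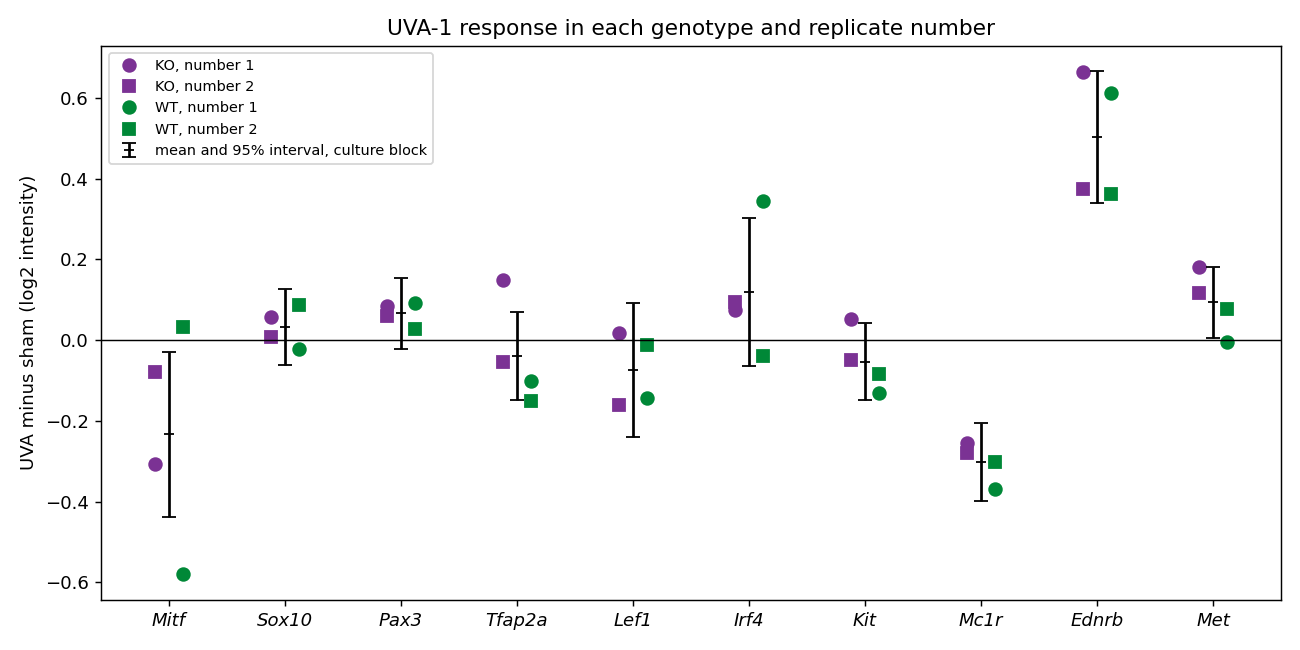
UVA minus sham in log2 intensity for each gene in KO (purple) and WT (green), circles for replicate number 1 and squares for number 2; the black bar is the mean over genotypes with its 95% interval from the limma fit with culture as a block. All 4 points of Mc1r lie below 0 and all 4 of Ednrb above it, and the points of Mitf spread from -0.58 to 0.03.

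The UVA difference was not shown to depend on Atg7 for any member. Limma called 0 of 10 in the test of the difference between genotypes, and 0% of all genes, in any of the 3 fits. At an unadjusted p under 0.05, 0 members passed either, against 1.33% of all genes with no block, 2.06% number-blocked and 3.45% culture-blocked. The UVA effect in KO minus that in WT was 0.07 log2 units for Mc1r (culture-blocked 95% interval -0.12 to 0.26) and 0.03 for Ednrb (-0.29 to 0.36). The largest was that of Tfap2a, 0.17 (-0.05 to 0.39), which was 0.15 and -0.05 in KO and -0.10 and -0.15 in WT.

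The order of the group means was set against the spread between duplicates, which includes the shift between replicate numbers and makes no use of the pairing. Mitf, Tfap2a, Kit and Mc1r had their highest group mean in WT sham, Sox10, Pax3, Irf4, Ednrb and Met in WT UVA, and Lef1 in KO sham. Of the 30 steps between neighbouring groups, 3 per gene, 0 exceeded this unpaired pooled SD. The whole span from highest to lowest group exceeded that SD for 1 gene, Ednrb (1.12 log2 units from WT UVA to KO sham, SD 0.54). Within each number, Mc1r was highest in WT sham and lowest in KO UVA.

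Of the 7 ligands of the 4 receptors, 6 were measured, and Asip, the MC1R antagonist, was not analysed here. Kitl, which encodes stem cell factor, the ligand of KIT, read 1474 and 885 in KO UVA and 1199 and 625 in KO sham, against 1386 and 629 in WT UVA and 1049 and 470 in WT sham. It was higher after UVA in all 4 pairs, by 0.41 log2 units on average (1.33-fold, SE 0.06, limma adjusted p = 0.0330 culture-blocked, 0.600 number-blocked and 1 with no block). Between the numbers Kitl was 0.99 log2 units lower in number 2, where Kit was 0.93 higher. In number 2 the fibroblast markers were also lower (medians -1.08 in KO and -2.35 in WT) and the melanocyte markers higher (1.18 and 1.24). Which cells the Kitl RNA came from was not tested. Edn1, a ligand of EDNRB, read 101 and 126 in KO UVA and 124 and 164 in KO sham, against 70 and 72 in WT UVA and 101 and 90 in WT sham. The KO to WT ratio was 1.54 (number-blocked limma adjusted p = 0.297) and the UVA to sham ratio 0.768 (culture-blocked limma adjusted p = 0.0980). Both ratios come from a dim signal, since the mean level of Edn1 (6.67 log2 units) was below the median of all genes (7.31). In number 1 both Edn1 (0.41 log2 units) and Ednrb (0.12) were higher in KO, and in number 2 Edn1 was higher (0.84) and Ednrb lower (-1.35). Hgf, the ligand of MET, was 229 to 312 in KO and 254 to 293 in WT of number 1, and 87 to 99 in KO and 63 to 73 in WT of number 2, so that all number 2 arrays lay below all number 1 arrays. Pomc, the precursor of the MC1R agonist, stayed between 66 and 98 over the 8 arrays, Edn2 between 92 and 105, and Edn3 between 166 and 213.

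Other genes around the circuit were counted in 4 lists. Limma called 0 of their measured genes in every comparison, with no block, number-blocked or, for UVA and the interaction, culture-blocked. Of 23 measured MITF target genes, which include the 9 melanocyte markers, 14 were lower in KO (median of the log2 differences -0.02). The ends of the list were Ppargc1a, a coactivator of mitochondrial genes (-1.10; -0.42 in number 1 and -1.78 in number 2), and Ctsk, a protease gene (0.90; 0.10 and 1.70). Cdk2, a cell cycle kinase gene, differed by -0.38 and Diaph1 by 0.07. The MITF targets had a median number 2 minus number 1 difference of 0.58 in KO and 0.85 in WT.

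Of 21 relatives and partners of the transcription factors 9 were lower in KO (median 0.03). Creb1, whose product mediates cyclic AMP, differed by -0.19, Etv5 by -0.15, Tfap2b by 0.31 and Snai2 by 0.32. Of 25 genes of receptor signalling and processing 10 were lower (median 0.02), with Adcy7, an adenylyl cyclase, at -0.59 (-0.20 in number 1 and -0.98 in number 2), Spry1 at -0.18, Spry4 at 0.20 and Ece1, which processes endothelins, at 0.37. Of 10 related receptors 3 were lower (median 0.19), and the highest were Fgfr1 (0.53) and the fibroblast marker Pdgfra (0.79; -0.06 in number 1 and 1.64 in number 2).

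Profiles most like those of the members were sought over the 8 arrays among the 11089 other genes at or above the median level. Likeness was the root mean square difference of log2 values after each gene was centred on its own mean, and the arrays differ mostly by replicate number. Nearest to Kit were Eogt (0.03), Arhgef37 (0.05) and Arhgap18 (0.05), nearest to Sox10 were Rgl1 (0.05), Syt4 (0.05) and Mcoln3 (0.06), and nearest to Pax3 were Cdkn2d (0.05), Rnaseh2b (0.06) and Plekha5 (0.06). Tfap2a lay closest to Mgll (0.05), Stat2 (0.08) and Erbb3 (0.08), and Met to Nav2 (0.06), Tecpr1 (0.07) and Mgat5 (0.07). Mitf lay closest to Rfc5 (0.09), Gm10863 (0.13) and Npnt (0.13), and Irf4 to Prickle1 (0.12), Eya1 (0.15) and Ica1 (0.15). For Mc1r they were Pole2 (0.14), Adgb (0.15) and Ak5 (0.15). Ednrb had no close match, its nearest being Gk5 (0.28), Npr3 (0.29) and Lonrf3 (0.31). Among the members themselves Pax3 and Met (0.08), Kit and Met (0.09), Sox10 and Pax3 (0.09) and Kit and Pax3 (0.09) were the closest pairs, and Mc1r and Ednrb (0.87) the farthest.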

How the data were processed

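RNA of 8 samples, 2 per group, was hybridised to 1-colour Affymetrix arrays that cover whole transcripts; groups and replicate numbers came from the sample titles. The deposited intensity values were made by RMA (background correction, quantile normalization, summarisation) in Affymetrix Expression Console 1.3.1.187, per the submitters' processing notes; the sources used here name no build or annotation version. Values were linear, rounded to integers and between 7 and 22585; log2 was taken here, although log2 values had been planned for. RMA forces near-equal distributions, so a change common to most genes would not be seen. Of 41345 probe sets, 23521 had 1 gene symbol; the brightest per gene was kept, without a filter on dim genes. Array medians were 110 to 115, and precision is limited by how few arrays there are.

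Limma 3.58.1 in R 4.3.3 fitted 4 group means over all 8 arrays (4 residual degrees of freedom, eBayes with trend), with 7 comparisons and Benjamini-Hochberg adjustment over all 22180 genes at 0.05, two-sided. The difference between duplicates, compared across the 6 pairs of groups, gave correlations of 0.80 to 0.92. Principal component 1 (77.7% of the variance) split the arrays by number. The numbers were therefore taken to pair the arrays, a pairing that rests on the data and the shared numbers. Blocks were the replicate number (3 residual degrees of freedom) or each combination of genotype and number (2). All p-values measure the spread between these samples. The no-block and number-blocked fits of KO against WT were tested on simulated data with a shift between numbers. The culture-blocked fit, which gave the only member calls, was not tested in this way. The members, the gene lists and the rules for named genes (all members and ligands; called genes and the 2 highest and 2 lowest of each other list at or above the median level; the 3 likeliest profiles of members ranging over at least 1 log2 unit) were chosen with earlier results of these data known. Alternatives were another variance prior, a filter, repeated quantile normalization, averaged probe sets, averaged cultures and omitted arrays. Leaving out arrays with a block kept was added after seeing the data.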

Additional observations from a re-analysis of the deposited data

How the results depend on the processing

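Without a block limma called 0 genes in each of the 7 comparisons. With a replicate block it called 7 genes for KO against WT averaged over treatments, 3 for UVA against sham averaged over genotypes, 2 for UVA in KO and 1 for UVA in WT, none of them members. With culture as a block it called 97 genes for averaged UVA, 2 of them members (Mc1r and Ednrb), 2 in KO and 12 in WT. In the replicate block fit with 1 array left out, the averaged UVA comparison called 0 to 2 genes. These omissions, and those of a whole culture, were chosen after seeing the data. The other alternatives, each array left out without a block included, called 0 genes in every comparison. Over the 70 member differences and 1690 alternative values, 2 became calls and 0 calls reversed. The fit with no block had called 0 members, so none could reverse. The sign changed in 284 values, none of them called. The blocks with all arrays kept, the other variance prior and the filter left the differences themselves unchanged. Averaging probe sets did so too, since each member has 1 probe set. The totals therefore do not measure how stable the differences are. Without a block, an omitted array leaves the numbers unequal between groups. The averaged genotype difference then ran from -1.04 to -0.05 for Mc1r and from -0.93 to -0.13 for Irf4, and it kept its sign for Met and Ednrb too. It changed sign for Mitf (-0.66 to 0.13), Sox10 (-0.41 to 0.26), Pax3, Tfap2a, Lef1 and Kit. The averaged UVA difference of Mc1r ran from -0.80 to 0.20. With 2 arrays per group, precision is limited by the spread between the replicate numbers. Values are given to whole intensity units, which is coarser on the log2 scale for dim genes such as Irf4 and Lef1.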
